A study of Ovis aries with 95 samples.

Results

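HBB and AHSP, genes of the red cell lineage, were followed in the developing sheep brain. Every gene probe that the array files name HBB or AHSP was taken, which gave 2 probes for HBB and 2 for AHSP, or 4 of the 15008 probes and 2 of the 14347 genes on the array. The study hybridised 95 one-colour arrays, each with RNA of the cortex, the brainstem, the hippocampus or the hypothalamus of untreated sheep (Ovis aries), either a fetus labelled 80, 100, 120, 130 or 145 d of gestation or a lamb 1 d after birth, with 4 arrays in each of the 24 groups of region and age except hippocampus at 100 d with 3. The labels give no breed or sex and do not tie an array to an animal. According to the study's methods each age group held a set of twins, which the labels do not mark, so the spread between arrays may understate the spread between unrelated animals. Each level below is the log2 of a background-corrected intensity after quantile normalisation over all arrays, so a difference of 1 is a 2-fold difference, and a call is a Benjamini-Hochberg adjusted p under 0.05 in limma.

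HBB encodes the adult beta chain of haemoglobin. AHSP, the alpha haemoglobin stabilising protein, is a chaperone that holds free alpha-globin chains until they pair with beta chains. Both genes are transcribed in developing red cells, and their RNA persists in young circulating red cells before it is lost with maturation. In fetal sheep the beta-type chain of haemoglobin is a fetal one, encoded by a neighbouring gene of the beta-globin cluster, and it gives way to the adult chain around birth. A brain region that was not flushed of blood holds red cells in its vessels, and the study's methods describe no flushing. In bulk tissue, fewer red cells and less globin RNA in each red cell cannot be told apart.

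The probes differ in what they can tell apart. The HBB coding probe starts at base 226 of its transcript, and the array design assigns it both to HBB and to the transcript of LOC100134870, for which RefSeq (ARS-UI_Ramb_v3.0) lists the synonym HBBC and which lies beside HBB in the beta-globin cluster, so signal from these genes cannot be separated. The files also do not settle whether it binds fetal beta-globin RNA, so its level cannot be read as that of the adult chain alone. The other HBB probe, called the HBB EST probe here, was designed from a single expressed sequence tag that the array names HBB, and starts at base 559. The AHSP probes start at bases 155 and 156 of one expressed sequence tag and share 59 of their 60 bases, so that they are nearly the same probe. Their sequences are shown to make this overlap visible, with the 1 base that each does not share in capitals, together with the HBB coding probe, which has no capitals because the whole probe may match either of the named genes.
HBB coding probe: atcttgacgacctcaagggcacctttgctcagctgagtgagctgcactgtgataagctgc
AHSP probe 1: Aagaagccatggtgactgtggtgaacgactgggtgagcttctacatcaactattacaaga
AHSP probe 2: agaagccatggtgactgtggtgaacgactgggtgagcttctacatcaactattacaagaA
A further probe, described on the array as the fetal subunit beta of haemoglobin, is no member and was read as a comparator for the HBB probes. It is called the fetal beta-globin probe.

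All 4 member probes passed the filter on low signal in every region. Over the 95 arrays 59.5 to 88.5% of gene spots were well above background. Each of the 14 slides held arrays of 1 region, so region and slide cannot be told apart in any comparison between regions. The median of OXT, a hypothalamic peptide gene, was 10.82 in hypothalamus and 7.81 to 8.59 elsewhere. That of HOXA5, a hindbrain patterning gene, was 9.59 in brainstem and 6.40 to 6.44 elsewhere. Of the other hypothalamic peptide genes read, POMC, GHRH and GNRH1 also had their highest median in hypothalamus. SST had its lowest there, at 13.19, against 13.30 to 14.58 elsewhere. No listed marker of hippocampus or cortex was on the array, so those labels had no such check. No HBB or AHSP spot was saturated. The HBB EST spot of hippocampus 80 d replicate 1 carried an outlier mark and was left out, so that the HBB mean of that array, 14.74, rests on the coding probe alone. That array was kept in every value of the HBB mean below, its correlations included, unless it is said to be left out.

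The HBB coding probe was bright from 80 to 130 d of gestation in cortex, brainstem and hypothalamus and lower at 145 d and 1 d after birth, while hippocampus was more scattered and was low at 100 d too. In cortex its level was 14.46, 14.08, 13.89 and 13.92 on the 4 arrays at 80 d, and 13.91, 14.51, 14.64 and 14.55 at 130 d. At 145 d it was 12.91, 11.19, 12.59 and 12.34, and at 1 d after birth 12.44, 12.004, 12.73 and 12.30. No array of 145 d or 1 d after birth reached the lowest array of 80 d or 130 d. The difference between 145 d and 80 d was -1.83 (standard error 0.40, 3.56-fold lower, limma adjusted p = 0.00084), and most of it lay in the last fetal step, which was -2.15 from 130 to 145 d (limma adjusted p = 0.018). That step was -2.11 to -1.79 and did not pass without 130 d replicate 2, 3 or 4 or without 145 d replicate 2 (limma adjusted p up to 0.0801).

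In brainstem the coding probe was at 13.92, 15.09, 14.73 and 14.85 at 80 d, at 14.10, 15.05, 14.46 and 15.90 at 130 d, at 12.94, 13.26, 13.69 and 13.38 at 145 d, and at 12.56, 12.09, 12.95 and 13.39 at 1 d after birth. The 145 d arrays were again below all arrays of 80 d and of 130 d. The fall from 80 d to 145 d was -1.33 (standard error 0.37, limma adjusted p = 0.0065), and that from 130 d was -1.56 (limma adjusted p = 0.0374). The latter call was lost without any one of 7 of its 8 arrays (limma adjusted p up to 0.116). On the highest newborn array of brainstem, replicate 4, blocks of spots had a median below the mean of the other newborn brainstem arrays. These blocks are called its dim centre, and no member probe lies in them. Outside them the median probe lies 0.40 above the mean of those other arrays. As the blocks were chosen by their low level, a higher level outside them follows from that choice.

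In hypothalamus the level was 14.10, 15.08, 14.89 and 14.95 at 80 d, 14.13, 14.94, 15.27 and 15.25 at 130 d, 13.69, 12.47, 12.66 and 13.08 at 145 d, and 11.92, 12.58, 12.56 and 12.01 at 1 d after birth. Arrays of the last 2 ages did not overlap with those of 80 d or 130 d. The change from 80 to 145 d was -1.78 (standard error 0.36, limma adjusted p = 0.00197). The step from 130 d, -1.93, did not pass (limma adjusted p = 0.204), and no probe of the 13737 tested did in that step.

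Hippocampus differed in spread. Its coding probe levels were 14.74, 14.41, 13.55 and 15.23 at 80 d, 13.71, 11.51 and 12.71 at 100 d, 13.79, 15.76, 13.94 and 12.30 at 120 d, 13.06, 15.43, 13.39 and 14.68 at 130 d, 12.04, 13.37, 9.02 and 10.91 at 145 d, and 11.41, 12.63, 11.25 and 15.25 at 1 d after birth. All 145 d arrays were below the 80 d arrays, but the newborn group held 1 array as high as any at 80 d, and its mean, 12.63, was level with that of 100 d, 12.64. The difference of -3.15 from 80 to 145 d (standard error 0.95) did not pass (limma adjusted p = 0.0658). It was -3.83 and passed without 145 d replicate 2 (limma adjusted p = 0.0308).

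These calls stand against a background in which many probes changed. The share of all probes whose age groups do not overlap is not given here, so non-overlap is read as a description of the arrays. For the coding probe the F test over all ages passed in cortex (limma adjusted p = 2.13e-05), brainstem (7.44e-05) and hypothalamus (1.53e-05) and not in hippocampus (0.35), where of all probes tested 46.5%, 41%, 15.7% and 3.09% passed in cortex, brainstem, hypothalamus and hippocampus. Lower at 145 d than at 80 d were 22.7% of the cortex probes, 20.7% of those of brainstem, 8.23% of those of hypothalamus and 2.37% of those of hippocampus. The step from 130 to 145 d is the rarer event, with 0.272% of probes called in cortex, 1.32% in brainstem and 0% in each of hypothalamus and hippocampus. Between 145 d and 1 d after birth, where 0.279% of probes passed in cortex and 5.01% in brainstem, 0.00742% in hippocampus and 2.45% in hypothalamus, the coding probe differed by 0.11, -0.57, 1.30 and -0.71 in that order and passed in none of the 4.

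**Figure D1:**
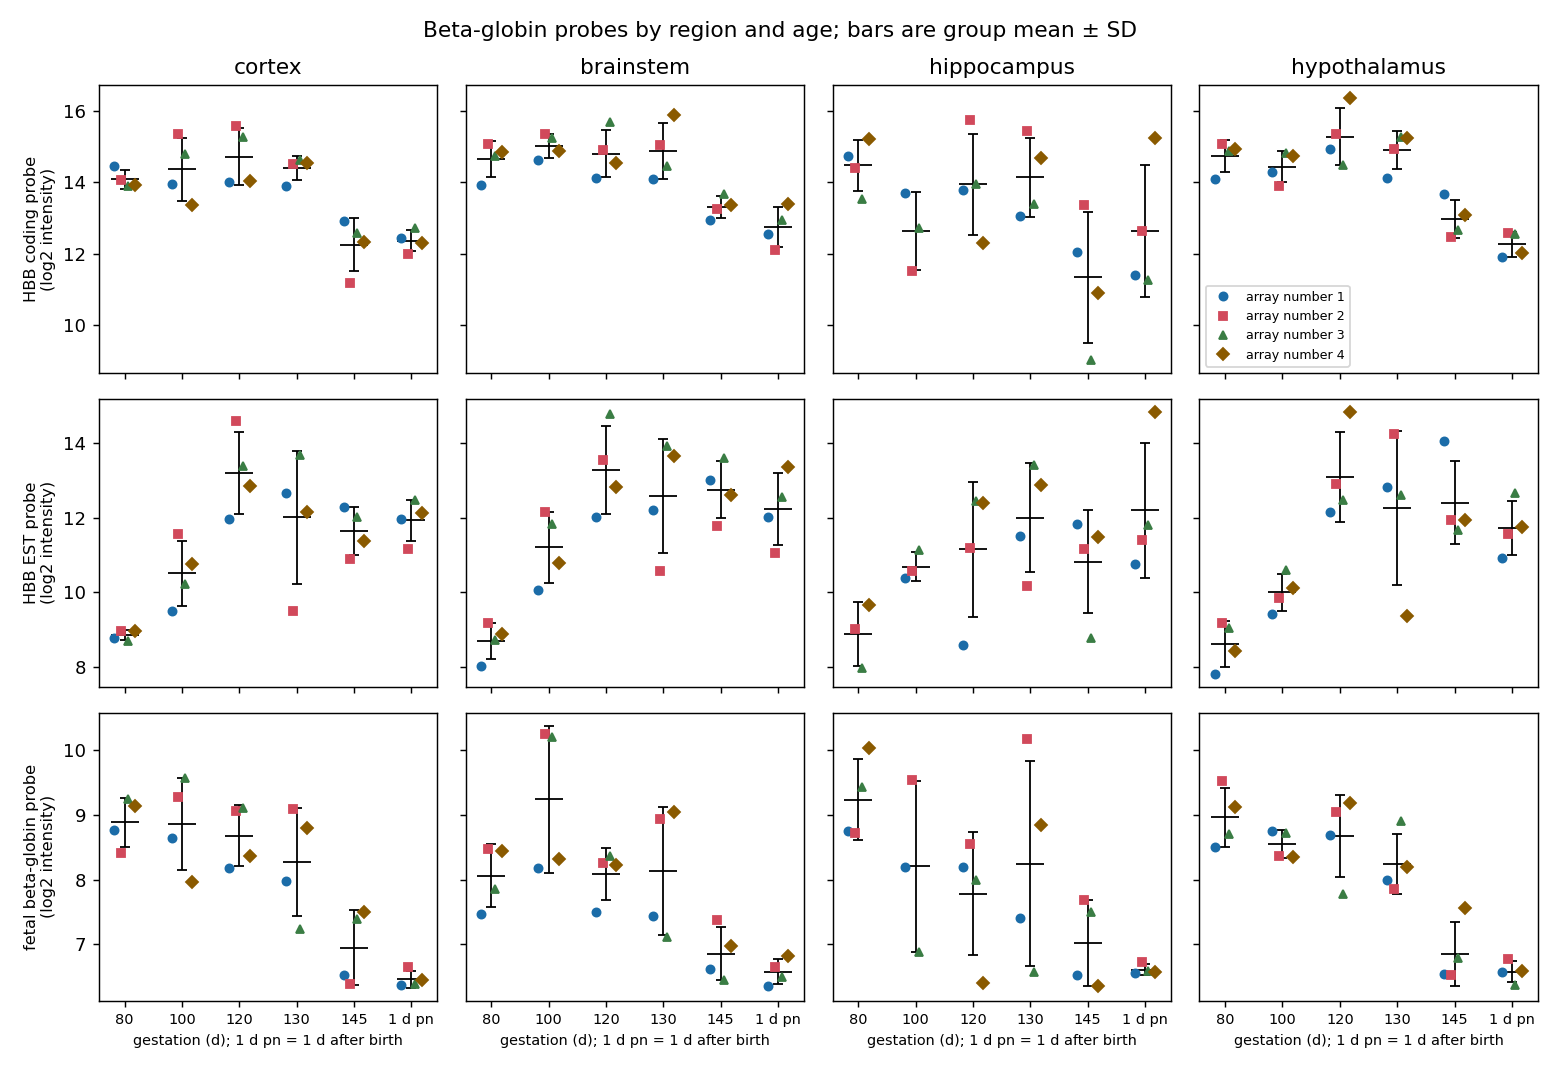
Levels of the HBB coding probe, the HBB EST probe and the fetal beta-globin probe (rows, log2 intensity) in the 4 regions (columns) against age, in days of gestation and 1 d after birth (1 d pn). Each point is an array, horizontal bars are group means and vertical bars the SD. The coding probe is lower at 145 d and after birth than at 80 d in cortex, brainstem and hypothalamus and more scattered in hippocampus, the fetal probe is lower at these ages than at 80 d in all 4 regions, and the EST probe has its lowest mean at 80 d.

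Early in this period, while the coding probe stayed bright in cortex, brainstem and hypothalamus, the HBB EST probe rose. In cortex it was at 8.77, 8.96, 8.69 and 8.96 at 80 d, 9.50, 11.58, 10.21 and 10.76 at 100 d, and 11.96, 14.60, 13.39 and 12.84 at 120 d. The 3 groups did not overlap. At 145 d it was at 12.30, 10.89, 12.02 and 11.37, still above all 80 d arrays, with a difference of 2.80 (standard error 0.65, 6.96-fold higher, limma adjusted p = 0.00132). The steps were 1.67 from 80 to 100 d (limma adjusted p = 0.145) and 2.69 from 100 to 120 d (limma adjusted p = 0.0145), which did not pass without 100 d replicate 1 or 120 d replicate 2 (limma adjusted p up to 0.0616).

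In brainstem the EST probe went from 8.01, 9.17, 8.72 and 8.87 at 80 d through 10.06, 12.14, 11.83 and 10.79 at 100 d to 13.02, 11.78, 13.61 and 12.61 at 145 d. Groups again did not overlap between 80 d and the later fetal ages named here. The difference between 145 d and 80 d was 4.07 (standard error 0.68, 16.8-fold higher, limma adjusted p = 8.3e-05), and here the step from 80 to 100 d passed (2.52, limma adjusted p = 0.0207), though not without 80 d replicate 1 or 100 d replicate 2 or 3 (limma adjusted p up to 0.0827).

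In hypothalamus the EST probe was at 7.81, 9.17, 9.04 and 8.43 at 80 d, 12.15, 12.92, 12.49 and 14.84 at 120 d, and 14.06, 11.94, 11.67 and 11.95 at 145 d. Every array of 120 d and 145 d was above every 80 d array. The difference between 145 d and 80 d was 3.79 (standard error 0.78, limma adjusted p = 0.00211). In hippocampus the 3 arrays of 80 d with a value were at 9.01, 7.96 and 9.67, and those of 145 d at 11.84, 11.15, 8.78 and 11.48. These groups overlapped, and the difference of 1.93 (standard error 1.05) did not pass (limma adjusted p = 0.392). In all 4 regions the arrays of 100 d, and also those of 1 d after birth, lay above the arrays of 80 d.

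Higher at 145 d than at 80 d were 19.2% of the cortex probes, 17.1% of those of brainstem, 5.54% of those of hypothalamus and 2.05% of those of hippocampus. From 80 to 100 d 5.94% of the cortex probes passed, 11.2% of those of brainstem, 0.0445% of those of hippocampus and 0.146% of those of hypothalamus, and from 100 to 120 d 6.61%, 3.37%, 0.0148% and 1.15% in the same order. The F test over all ages passed for the EST probe in cortex (limma adjusted p = 0.000171), brainstem (0.000163) and hypothalamus (0.00181) and not in hippocampus (0.522).

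The HBB probes differed in opposite directions between 80 and 145 d, so their mean hid both differences. The mean differed between 145 d and 80 d by 0.48 in cortex and 1.37 in brainstem, -1.34 in hippocampus and 1.01 in hypothalamus. The hippocampus value was -0.56 without 80 d replicate 1, the array whose mean rests on the coding probe, and -0.62 without 145 d replicate 3. Only the brainstem passed (limma adjusted p = 0.0282, against 0.43, 0.505 and 0.209 in the others), where 17.3% of genes were called higher. Without brainstem 80 d replicate 1, 145 d replicate 3 or 145 d replicate 4 it was 1.13, 1.16 or 1.38 and did not pass (limma adjusted p = 0.0965, 0.0924 and 0.0503). The HBB mean was highest at 120 d in cortex, at 13.96 ± 0.93, in brainstem, at 14.05 ± 0.92, and in hypothalamus, at 14.20 ± 0.99 (SD, n = 4), and at 130 d in hippocampus, at 13.07 ± 0.66. Its F test over ages passed in cortex (limma adjusted p = 0.000946), brainstem (0.00428) and hypothalamus (0.00468) and gave 1 in hippocampus, beside 46.5%, 41.1%, 15.7% and 3.08% of all genes.

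The within-array difference of the HBB probes, the EST probe minus the coding probe, was then computed for each array. What raises or lowers both probes by the same factor drops out of it, as far as both are well above background. Its absolute value also depends on how well each probe binds, so its change is read and not its level. This measure was chosen after the values of the probes had been seen.

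At 80 d the difference was -5.24 ± 0.31 in cortex (SD, n = 4), -5.96 ± 0.05 in brainstem (n = 4), -5.52 ± 0.10 in hippocampus (n = 3) and -6.14 ± 0.32 in hypothalamus (n = 4). At 145 d it was -0.61 ± 0.27, -0.56 ± 0.71, -0.52 ± 1.19 and -0.57 ± 0.68 in the same order, and at 1 d after birth -0.44 ± 0.30, -0.50 ± 0.41, -0.43 ± 0.74 and -0.54 ± 0.56 (n = 4 each). In each region no 80 d array overlapped with any array of 100, 120 or 145 d or of 1 d after birth. This is a description, as the share of all probes without such overlap is not given here. The 100 d groups stood between, at -3.86 ± 0.91 in cortex and -3.82 ± 0.62 in brainstem, at -4.45 ± 0.38 in hypothalamus (n = 4 each) and, more scattered, at -1.96 ± 1.23 in hippocampus (n = 3). At 120 d the means were -1.53 ± 0.52, -1.52 ± 0.52 and -2.19 ± 0.55 in cortex, brainstem and hypothalamus, above all 100 d arrays of the same region.

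Over the fetal arrays the difference correlated with the day of gestation at Pearson's r = 0.85 in cortex (n = 20 arrays), 0.89 in brainstem (n = 20), 0.87 in hypothalamus (n = 20) and 0.62 in hippocampus (n = 18), and at Spearman's rho = 0.85, 0.84, 0.86 and 0.60. As the difference was formed after its probes had been seen to move apart with age, these correlations are a description and were given no test. When 2 of the 80 d arrays were dropped, whichever they were, r was 0.80 to 0.82 in cortex and 0.85 in brainstem, 0.83 to 0.84 in hypothalamus and 0.46 to 0.47 in hippocampus. Within single slides of cortex it was 0.79 to 0.95, of brainstem 0.75 to 0.98 and of hypothalamus 0.72 to 0.99, and it was 0.58 in the 1 slide of hippocampus with enough arrays. That hippocampus slide held no 80 d array. For comparison, the same r was -0.43, -0.46, -0.41 and -0.43 for the coding probe alone and 0.65, 0.77, 0.75 and 0.48 for the EST probe alone, in cortex, brainstem, hypothalamus and hippocampus.

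**Figure D2:**
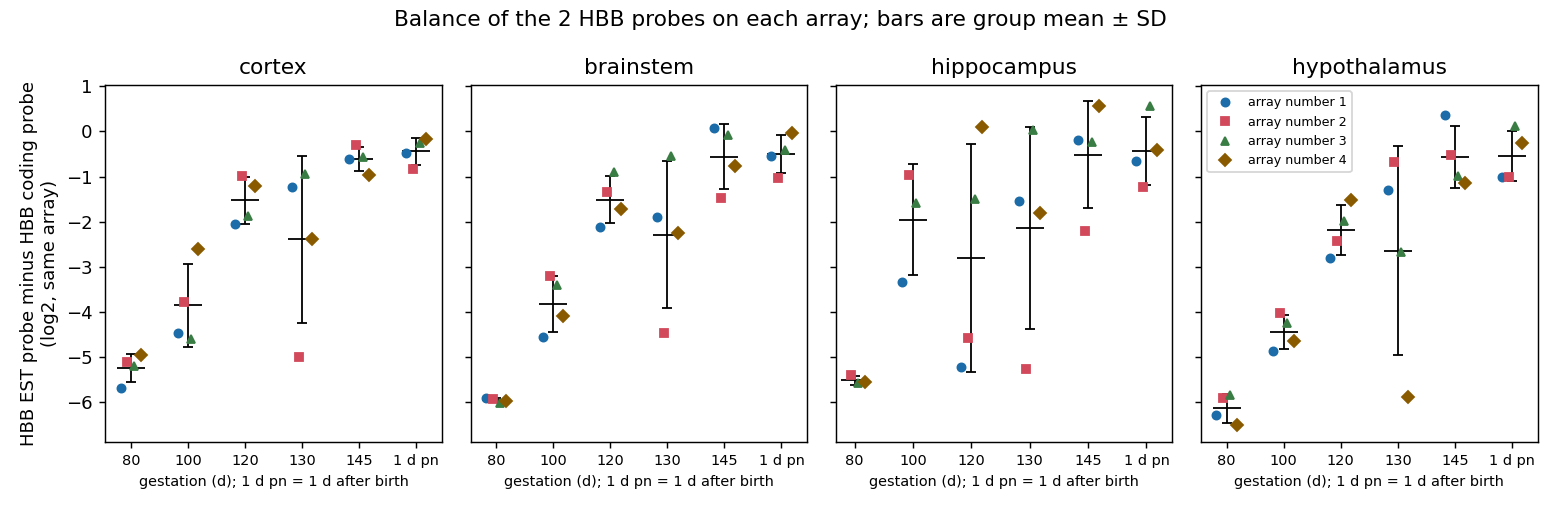
HBB EST probe minus HBB coding probe on the same array (log2) against age in the 4 regions. Each point is an array, horizontal bars are group means and vertical bars the SD. Values lie between -6.52 and -4.96 at 80 d and at or above -2.21 on every array of 145 d and 1 d after birth, while 1 array of 130 d in each region and 2 hippocampal arrays of 120 d lie among those of 80 and 100 d.

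Some arrays stood apart from their age in this measure. At 130 d the values were -1.24, -5.01, -0.95 and -2.39 in cortex, -1.90, -4.47, -0.53 and -2.25 in brainstem, -1.54, -5.27, 0.03 and -1.81 in hippocampus, and -1.31, -0.69, -2.67 and -5.90 in hypothalamus. In each region 1 of the 4 arrays was thus below the other 3, replicate 2 in cortex, brainstem and hippocampus and replicate 4 in hypothalamus. None of these passed the limit of Dixon's test given under the flagged results, as the other 3 arrays were themselves scattered. In hippocampus at 120 d, replicates 1 and 2 were at -5.22 and -4.59 and replicates 3 and 4 at -1.50 and 0.10. Replicates 1 and 2 lay on 1 slide and replicates 3 and 4 on another, scanned on a different day. Slide and this split thus cannot be told apart. Replicate 4 had the lowest share of gene spots well above background of all arrays, 59.5%. On the low 130 d arrays the EST probe was at 9.50 in cortex and 10.58 in brainstem, 10.17 in hippocampus and 9.35 in hypothalamus, the lowest of its group each time, and the coding probe was at 14.51, 15.05, 15.43 and 15.25, within the range of the group. The labels do not say whether the same number in different regions is the same fetus.

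The age labels of these arrays were set beside other genes. For each region a score of age was made from the genes that were called in one direction between 80 and 145 d in all the other regions but hippocampus, without the HBB, AHSP and fetal beta-globin probes. It is the mean level of the genes that were higher at 145 d minus that of the genes that were lower, on the log2 scale. The low 130 d arrays had scores of 0.05 in cortex, 0.85 in hypothalamus, 1.35 in brainstem and 0.71 in hippocampus, while the other 130 d arrays had, in that order, -0.01 to 0.14, 0.77 to 0.92, 1.34 to 1.41 and 0.67 to 0.95. In hippocampus the low 120 d arrays had 0.51 and 0.43, the other 2 had 0.52 each, and the 80 d arrays had -1.22 to -1.0. By these genes the arrays lay with the age on their label, although the difference of their HBB probes lay among those of 80 and 100 d.

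**Figure D3:**
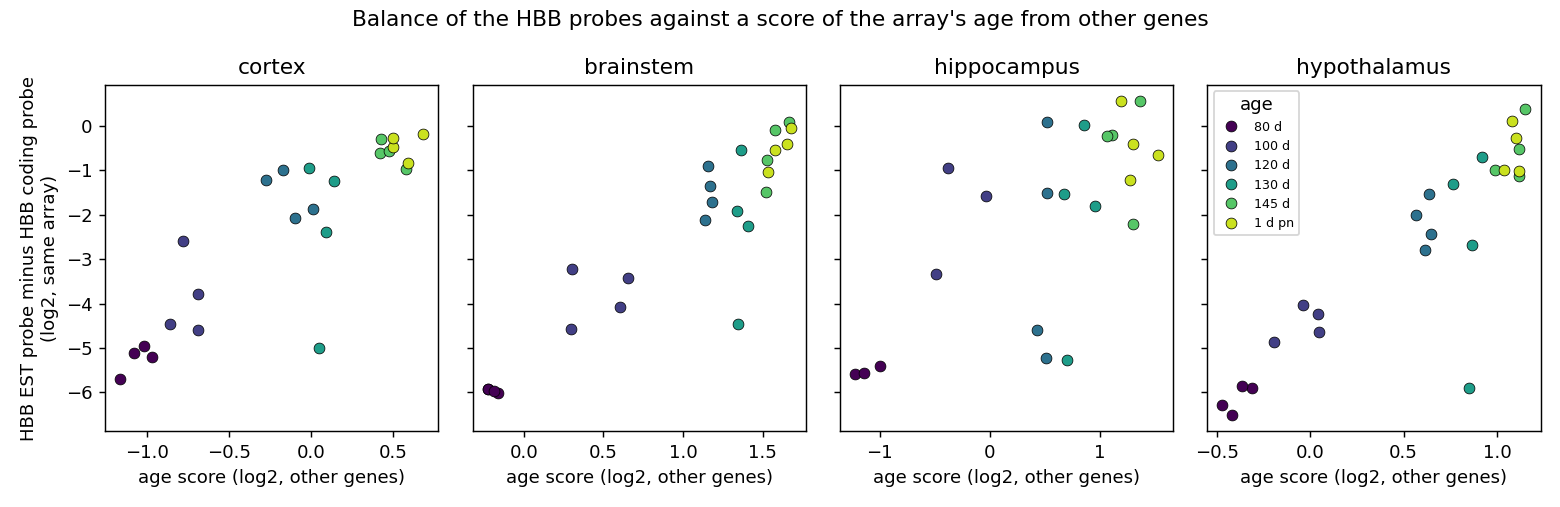
HBB EST probe minus HBB coding probe (log2, vertical axis) against a score of age from other genes on the same array (log2, horizontal axis, a scale of its own in each panel), with each array coloured by its labelled age. Both measures go up with age. The 130 d arrays between -5.90 and -4.47 have the age score of their own group.

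Leaving out the 2 low hippocampal arrays of 120 d, a step added after the data had been seen, the F test over ages in hippocampus gave a limma adjusted p of 0.374 for the coding probe and 0.246 for the EST probe, so neither passed. Without cortex 130 d replicate 2, brainstem 130 d replicate 2 or hypothalamus 130 d replicate 4, each left out in turn, the F tests of both HBB probes still passed in those regions.

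The fetal beta-globin probe, like the coding probe, was lower at 145 d than at 80 d, although the direction of the probes differed in other steps, as from 145 d to 1 d after birth in cortex (-0.49 for the fetal and 0.11 for the coding probe) and hippocampus (-0.41 and 1.30). In cortex it was at 8.77, 8.41, 9.24 and 9.14 at 80 d, 7.99, 9.10, 7.24 and 8.79 at 130 d, 6.52, 6.39, 7.40 and 7.50 at 145 d, and 6.37, 6.66, 6.39 and 6.44 at 1 d after birth. In all 4 regions no array of 145 d or 1 d after birth reached any array of 80 d. The difference between 145 d and 80 d was -1.94 in cortex and -1.21 in brainstem, -2.22 in hippocampus and -2.11 in hypothalamus (limma adjusted p = 0.000214, 0.0432, 0.0616 and 4.95e-05). Of all probes 22.7%, 20.7%, 2.37% and 8.23% were called lower, in the same order. At the last 2 ages the fetal probe was well above background on 1 or 2 of 4 arrays in each group, so these falls are on a compressed scale. The brainstem call was lost without any one of 6 of its 8 arrays (limma adjusted p up to 0.112). Over 94 arrays, taken as deviations from the mean of their group, the fetal probe had r = 0.41 with the HBB coding probe, -0.16 with the HBB EST probe and -0.48 with the EST minus coding difference. These are descriptions over arrays that share slides and normalisation.

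AHSP was dim, with levels from 6.35 to 9.36, and its probes were well above background on 84 and 86 of the 95 arrays. At 145 d they were so on 9 and 10 of 16 arrays, the fewest of any age. In brainstem the mean of the AHSP probes was 7.38, 8.09, 8.76 and 8.44 at 80 d, 7.22, 7.32, 7.32 and 7.49 at 100 d, and 7.33, 6.62, 7.61 and 6.58 at 145 d. The groups of 80 d and 145 d overlapped by the lowest 80 d array. The difference was -1.13 (limma adjusted p = 0.00769), and each probe alone gave -1.15 and -1.11 (limma adjusted p = 0.00983 and 0.00706), where 20.7% of all probes were called lower.

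In cortex AHSP was at 7.72, 7.07, 7.75 and 7.30 at 80 d, 7.30, 8.65, 8.23 and 7.89 at 120 d, and 7.37, 7.21, 6.64 and 6.57 at 145 d. Its highest values were at 120 d and its lowest at 145 d, and the groups overlapped. The F test over ages passed in cortex (limma adjusted p = 0.0188) and in brainstem (0.0458) and not in hypothalamus (0.477) or hippocampus (1), beside 46.5%, 41.1%, 15.7% and 3.08% of all genes in that order. Both calls were near the threshold. The cortex call was lost without 120 d replicate 2 or 3 (0.0747 and 0.0659), and the brainstem call without any one of 16 of the 24 arrays, where the adjusted p reached 0.105.

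Between 145 d and 80 d AHSP differed by -0.52 in cortex, -0.41 in hippocampus and -0.71 in hypothalamus, none of which passed (limma adjusted p = 0.0904, 0.646 and 0.254). Its mean was lower at 145 d than at 80 d in each region, as was that of the HBB coding probe. From 145 d to 1 d after birth the AHSP mean went in cortex from 6.95 ± 0.41 to 7.27 ± 0.15 and in brainstem from 7.04 ± 0.51 to 7.37 ± 0.40 (SD, n = 4). In hippocampus the 2 means were 7.27 ± 0.88 and 7.72 ± 0.39, and in hypothalamus 7.03 ± 0.73 and 7.14 ± 0.18. The groups overlapped, and the step passed in none of the 4 regions.

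**Figure D4:**
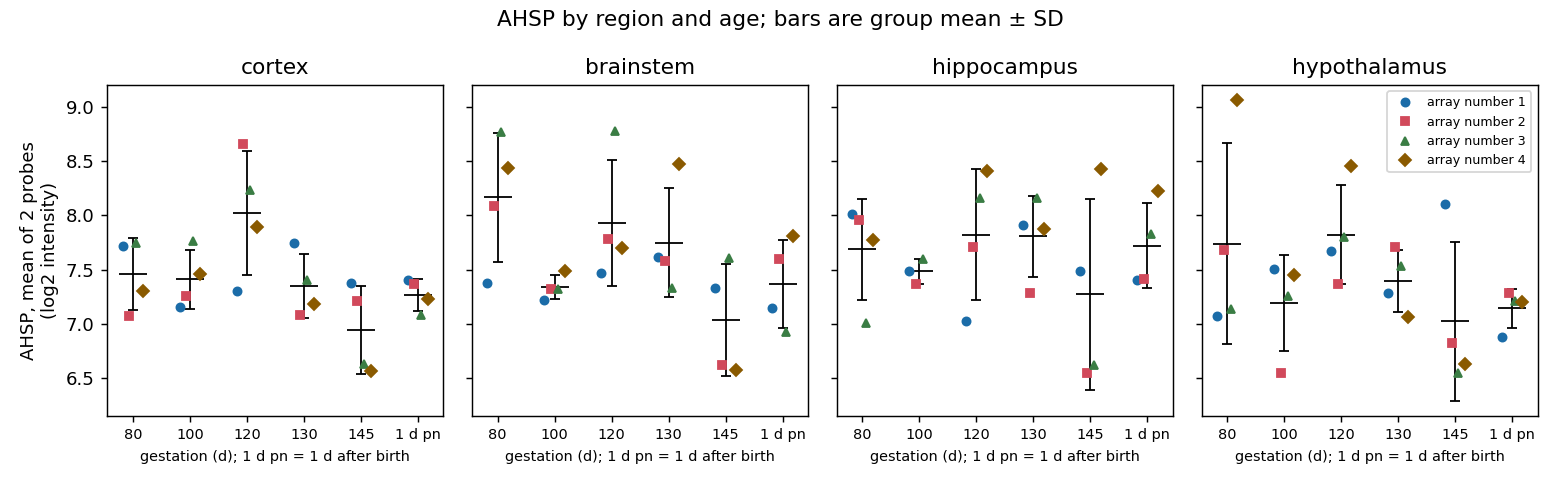
Level of AHSP, the mean of its 2 probes on each array (log2 intensity), against age in the 4 regions. Each point is an array, horizontal bars are group means and vertical bars the SD. The lowest group mean of each region is at 145 d, and groups of neighbouring ages overlap in every step.

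The AHSP probes, which differ by 1 base at each end, agreed closely in cortex and brainstem but not in hippocampus and hypothalamus. Over the arrays of a region their levels correlated at r = 0.98 in cortex (n = 24) and 0.97 in brainstem (n = 24), 0.31 in hippocampus (n = 23) and 0.46 in hypothalamus (n = 24). They were more than 1 apart on 0, 0, 5 and 4 arrays. The difference, probe 1 minus probe 2, had a range of -1.87 to 1.62 in hippocampus and of -2.04 to 0.61 in hypothalamus. The SD of their difference was 0.09, 0.14, 0.75 and 0.72. The array carries 228 pairs of probes with this overlap of 59 bases, and the median of the same SD over those pairs was 0.10, 0.17, 0.30 and 0.22. A larger SD than that of AHSP was seen in 71.1% of the cortex pairs, 65.4% of the brainstem pairs, 8.33% of the hypothalamus pairs and 10.09% of the hippocampus pairs. In hippocampus and hypothalamus the probes of AHSP thus differed from each other on single arrays more than most such pairs did. The pairs were not matched for level and the AHSP probes are dim, and whether other dim pairs differ as much was not tested.

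**Figure D5:**
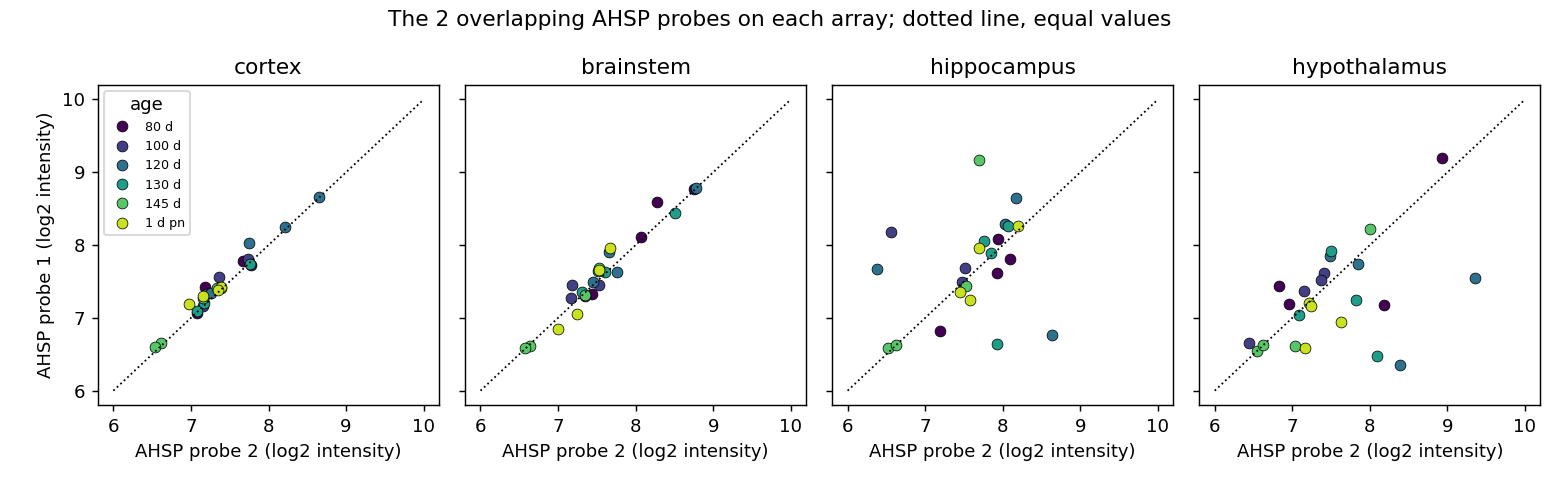
Level of AHSP probe 1 against that of AHSP probe 2 on the same array (log2 intensity, both axes), by region, coloured by age. The dotted line marks equal values. Points follow the line in cortex and brainstem, and 5 hippocampal and 4 hypothalamic arrays lie more than 1 from it.

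As a measure of blood, HBB and AHSP can be checked against each other. Over the arrays of a region the HBB and AHSP means correlated at Pearson's r = 0.56 in cortex (Spearman's rho = 0.38), 0.20 in brainstem (0.18), 0.56 in hippocampus (0.54) and 0.43 in hypothalamus (0.47). The hippocampus r includes 80 d replicate 1, whose HBB mean rests on the coding probe alone, and was not computed without that array. The permutation p was 0.00454, 0.352, 0.00512 and 0.0346 for r, and 0.0102, 0.352, 0.0102 and 0.0461 after adjustment over the 4 regions. Without the 2 arrays farthest from the median of HBB, r fell to 0.19, -0.04, 0.37 and 0.25, so the pooled relation rests on those arrays in the 3 regions where it passed, although leaving them out also narrows the range of HBB. Taken as deviations from the group means, which removes age, the same r was 0.58 in brainstem and 0.57 in hypothalamus, 0.47 in hippocampus and 0.39 in cortex. The HBB coding probe alone had r = 0.56 and 0.55 with the AHSP probes over the brainstem arrays (permutation p = 0.0126 and 0.00779 after adjustment over the 4 regions), where the HBB mean gave no call. For the HBB and AHSP means, r within the slides of cortex was 0.42 to 0.63 and within those of brainstem -0.02 to 0.20. It was 0.09 and 0.33 within slides of hippocampus and -0.21 to 0.66 within those of hypothalamus, and none passed.

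Taken as deviations from the group means over all 95 arrays, HBB and AHSP had r = 0.49, which is the second highest value for HBB among the 826 named genes, after APOA1 at 0.49. This holds for the HBB mean, and by probe AHSP had r = 0.23 with the coding probe and 0.55 with the EST probe. APOA1 encodes the main protein of high-density lipoprotein. For AHSP the highest was SERPINA1 at 0.50, the plasma protease inhibitor alpha-1 antitrypsin, and the next was HBB. The median over the named genes was -0.03 for HBB and 0.01 for AHSP. Over the 24 group means, the gene most like HBB was PECAM1 (r = 0.65), an adhesion molecule of endothelium and blood cells, and the gene most like AHSP was SMO (r = 0.56), the transducer of hedgehog signals. These correlations are descriptions over points that share slides and normalisation.

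Arrays of the same region and age differed widely in HBB. The pooled within-group SD was 0.85 for the HBB coding probe and 1.17 for the EST probe, against a median of 0.33 over all 14026 probes, and 3.86% and 0.962% of probes had a larger one. For the AHSP mean it was 0.49, exceeded by 22.0% of probes. The widest range of the coding probe in a group was that of hippocampus at 145 d, where the highest array was 20.4-fold above the lowest.

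The study's methods describe taking all 4 regions from each brain, so arrays of different regions come from shared animals, which the tests between regions could not take into account and treated as independent. Between regions, the coding probe differed over all ages (limma F test, adjusted p = 0.000472), being 1.04 higher in brainstem than in hippocampus (standard error 0.25, limma adjusted p = 0.000313) while hippocampus minus hypothalamus was -0.91 (limma adjusted p = 0.00189). Of all probes 84% passed this test, so a region difference is the rule on these arrays. With the slide as a random block the adjusted p was 0.0834, and slide and region cannot be told apart. The EST probe (limma adjusted p = 0.124) and the AHSP mean (0.215) did not pass, and the HBB mean did (0.0251, where 84.3% of genes did, and 0.216 with the slide as a random block).

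At single ages the coding probe differed between regions at 100 d (limma adjusted p = 0.0225) and at 145 d (0.0258), where 21.9% and 33.5% of probes passed, and not at 80, 120 or 130 d or at 1 d after birth, where 24.1%, 23.7%, 32.2% and 27.7% did. Without hippocampus 100 d replicate 2, the lowest array there, the first was 0.21, and without replicate 3 of that group 0.0684. The second was 0.216 without hippocampus 145 d replicate 3, the lowest array, 0.0804 without replicate 4 of that group and 0.0525 without brainstem 145 d replicate 3. With the slide as a random block they were 0.0662 and 0.0522. The HBB mean passed at 145 d alone (limma adjusted p = 0.0424), and did not without any one of 8 of the 16 arrays (limma adjusted p up to 0.258) or with the EST probe in its place (0.176). A difference between regions in the change at birth did not pass for the coding probe (limma adjusted p = 0.772), the EST probe (0.996) or the AHSP mean (1), and 0.0428% of all probes passed that test.

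Of a list of 67 further erythroid genes, 6 had a named probe and no alpha-globin gene was among them. EPOR, the erythropoietin receptor, was higher at 145 d than at 80 d in brainstem (0.57, limma adjusted p = 0.000359), and UROD, an enzyme of haem synthesis, was so in brainstem by 0.38 (limma adjusted p = 0.025). PKLR, the pyruvate kinase of red cells and liver, was dim in cortex, with a mean of 6.92 at 80 d and 6.67 at 145 d. This difference was -0.25 (limma adjusted p = 0.0115). SLC25A38, the mitochondrial glycine carrier of haem synthesis, did not pass in that comparison and was 0.41 higher after birth in brainstem (limma adjusted p = 0.0406). CA1, a red cell carbonic anhydrase, and EPO, erythropoietin, passed in neither comparison in any region, with EPO below the filter in cortex. None of the 6 was called in hippocampus or hypothalamus, where 3.08% and 15.7% of all genes passed over ages, so that no call among 6 genes says little. Of brainstem genes 17.3% were called higher at 145 d than at 80 d. Of cortex probes 22.7% were called lower at 145 d than at 80 d, and 5.01% of brainstem probes passed between 145 d and 1 d after birth. The 6 genes' median change from 80 to 145 d was 0.01, 0.05, 0.01 and 0.07 in cortex, brainstem, hippocampus and hypothalamus, beside -0.02, 0.01, 0.0016 and -0.02 for all genes. The deviations of these genes from their group means had a median r with HBB of -0.08 in cortex and 0.04 in brainstem, -0.22 in hippocampus and -0.05 in hypothalamus.

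Markers of other parts of the blood were read in the same way. Of 24 leukocyte genes 8 were on the array and 7 passed the filter in each region, and their median r with HBB over the deviations was 0.08 in cortex and 0.10 in brainstem, 0.04 in hippocampus and 0.38 in hypothalamus. Of 11 liver and plasma protein genes 5 were measured, with a median r of 0.15, 0.26, 0.15 and 0.12 in that order. Of 14 endothelial genes 6 were on the array, with a median r of 0.14, 0.27, 0.35 and 0.06. Their part in the HBB and AHSP values was not tested.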

How the data were processed

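The 95 samples were hybridised to Agilent sheep arrays as Cy3-labelled RNA, 1 sample on each array. The deposited scanner files hold the mean intensity and local background intensity of each spot, written by the authors' Feature Extraction software (version 10.1.1.1 per the file headers) and not normalised between arrays. The deposited series table holds the authors' normalised log2 values and served as an alternative. From the files, background was removed with normexp (offset 50) in limma 3.58.1 (R 4.3.3), and values were quantile normalised over all arrays and taken to log2, which compresses changes of dim probes. Spots with an outlier mark were left out. Probes entered a region's fit when on at least 4 of its arrays they reached 1.1 times the level that 95% of the 77 negative controls do not pass. Probes of a gene were averaged and were also tested alone.

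Groups were taken from the sample labels, which do not say that samples came from separate animals, so p-values measure the spread between these samples. The ages of a region were fitted jointly (lmFit and eBayes), with an F test of any difference from 80 d and contrasts between ages. Regions were compared in one fit of the 24 groups. P-values were adjusted by Benjamini-Hochberg over all probes or genes tested, at a threshold of 0.05. The correlations of HBB with AHSP over arrays used permutation tests of 100000 resamples. The methods' own test of time courses was not run. Precision is limited by how many arrays a group has. On simulated data of the same spread, limma called 88, 84, 39 and 59% of probes changed by 1 between 145 d and 80 d in cortex, brainstem, hippocampus and hypothalamus, and 97, 99, 74 and 91% of those changed by 2. The changed probes were drawn at random, and fewer were changed than were called in the real data. These shares therefore do not hold for the HBB probes, whose spread between arrays was larger than that of most probes.

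The members, the gene lists and the tests were chosen with earlier results of these data known. By the rule for naming, the text gives every probe of HBB and AHSP, every measured gene of the erythroid list, and the genes most like the members over group means and over deviations of arrays. The fetal beta-globin probe and the EST minus coding difference fall outside it and were chosen after values were seen. OXT, HOXA5, POMC, GHRH, GNRH1 and SST are the region markers named. As alternatives, the offset was set to 16, the scanner's processed signal was scaled to its 75th percentile, the authors' series table was used, quantile normalisation was run by region, the filter was dropped, a gene was read from its brightest probe or from single probes, the dim centre of 1 array was left out, replicate number or slide was added as a block, eBayes was run with trend and robust settings, and each array was left out in turn. Promoter and protein sequences were not used here, and coordinates in the genome are not given because the files name no build. Figures were drawn with matplotlib 3.10.9.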

Additional observations from a re-analysis of the deposited data

Results flagged for a closer look

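In 5 of 182 groups of 4 arrays, over the member probes, their means and difference and the fetal beta-globin probe, 1 array lay so far from the other 3 that it passed the 95% limit of Dixon's test, which chance alone would pass in about 1 in 20 groups. The HBB EST probe of hypothalamus 145 d replicate 1 was at 14.06, and the other 3 arrays at 11.67 to 11.95. AHSP probe 1 was at 8.22 on the same array, against 6.54 to 6.63 on the others, and at 9.19 on hypothalamus 80 d replicate 4, against 7.18 to 7.44. AHSP probe 2 was at 7.62 on hypothalamus 1 d after birth replicate 2, against 7.17 to 7.24. The fetal beta-globin probe was at 7.50 on brainstem 120 d replicate 1, against 8.23 to 8.37. No group of the EST minus coding difference was among those that passed.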

How the results depend on the processing

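The HBB mean depended on the probe. From 80 to 145 d it was -1.83 in cortex, -1.33 in brainstem and -1.78 in hypothalamus with the coding probe, which is also the brightest, and 2.80 in cortex and 3.79 in hypothalamus with the EST probe. The call of AHSP over ages in brainstem was lost with no filter (limma adjusted p = 0.0542), with AHSP probe 1 (0.06001) and with the brightest probe (0.0601). Between regions, the slide as a random block gave limma adjusted p of 0.0834 for the coding probe and 0.216 for the HBB mean over all ages, and of 0.0662 and 0.0522 for the coding probe at 100 d and 145 d. The HBB mean over all ages was at 0.0709 with the processed signal and at 0.124 with the EST probe, which gave 0.176 at 145 d. At 100 d the HBB mean passed with the coding probe (0.0225, or 0.0226 as the brightest). Across regions the replicate number as a block, with the numbers not shown to pair the arrays, brought the EST probe at 120 d to 0.0413 and changed no other call of these results. Leaving out each array in turn, the limma adjusted p of AHSP over ages was 0.00187 to 0.0747 in cortex and 0.0154 to 0.105 in brainstem. Its difference between 145 d and 80 d in cortex was -0.66 to -0.39, and it passed without 80 d replicate 2 or 145 d replicate 1. The HBB mean from 80 to 145 d in brainstem was 1.13 to 1.54 and the coding probe in hippocampus -3.83 to -2.38. Between regions the limma adjusted p was 0.0419 to 0.213 for the EST probe and 0.00284 to 0.0523 for the HBB mean over all ages, 0.0101 to 0.21 for the coding probe at 100 d, 0.0493 to 0.532 for the EST probe at 120 d, and 0.00182 to 0.216 for the coding probe and 0.0175 to 0.258 for the HBB mean at 145 d. The EST probe passed without hippocampus 1 d after birth replicate 4 or, at 120 d, replicate 3, and the HBB mean did not pass over all ages without hippocampus 145 d replicate 3, nor at 145 d without that array or any of 7 others.

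For HBB with AHSP over arrays, r was 0.44 in cortex and 0.30 in hypothalamus with the processed signal, and in hypothalamus 0.42 with an offset of 16 (0.415), 0.42 in the authors' table (0.424) and 0.40 over fetal arrays, none past the threshold. Probe by probe r was 0.33 and 0.32 in cortex for the EST probe with AHSP probes 1 and 2. In brainstem it was 0.56 and 0.55 for the coding probe, which passed. In hippocampus it was -0.11 for the coding probe with AHSP probe 1, and 0.52 and 0.51 for the EST probe. In hypothalamus it was 0.39 for the coding probe with AHSP probe 1, and -0.081 and 0.33 for the EST probe. For the HBB and AHSP means within slides, r was 0.42, 0.63 and 0.43 in cortex, 0.33 and 0.094 in hippocampus, and 0.66, 0.56 and -0.21 in hypothalamus. The cause of these changes was not tested. The other 783 values outside the left-out arrays kept their side of the threshold, and the differences past it kept their direction. Differences that did not pass could change sign. From 80 to 145 d in hippocampus the HBB mean gave -1.34 and the EST probe 1.93. The EST minus coding difference had r with gestation of 0.85 to 0.87 in cortex, 0.89 in brainstem, 0.62 to 0.70 in hippocampus and 0.87 to 0.88 in hypothalamus under the other normalisations. The dim signal of AHSP limits its changes to a compressed scale.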

Other observations

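The deviations of the EST minus coding difference were set side by side for arrays of the same age and the same replicate number in different regions. They correlated at r = 0.67 between cortex and brainstem (24 pairs), 0.56 between cortex and hippocampus (23 pairs) and 0.72 between brainstem and hippocampus (23 pairs). With hypothalamus they gave -0.17 for cortex, -0.13 for brainstem and -0.02 for hippocampus. Over all probes the same-numbered arrays had mean correlations of 0.11, 0.10 and 0.05 for the first 3 pairs of regions and of 0.05, 0.12 and -0.01 for those with hypothalamus. These are descriptions, and the low 130 d arrays, numbered 2 in cortex, brainstem and hippocampus and 4 in hypothalamus, weigh in them. The labels do not say what a number stands for.

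Read by itself, the HBB coding probe was most like PECAM1 over the 24 group means (r = 0.78), followed by CLDN3 (0.74), a tight junction protein, and by TYMS (0.72), CCNA2 (0.72) and ASPM (0.71), which act in DNA synthesis and cell division. The median over the 826 named genes was -0.03. This list was made after the probe's values were seen.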
